A study of Homo sapiens with 2 samples.

Results

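The genes described here encode the degradative machinery of the lysosome: the subunits of the vacuolar proton pump (V-ATPase), the cathepsins, other acid hydrolases and their activators, lysosomal membrane proteins, and the MiT/TFE transcription factors that govern them. They were compared between ACHN cells carrying a short hairpin RNA (shRNA) against Kindlin-2 and ACHN cells carrying a control shRNA. A gene was included when its transcript cluster (the probes the array reads together for it) carried 1 platform symbol and that symbol began with ATP6V, was CTS followed by a single letter, or stood on a list of 23 named genes. This gave 59 of 18417 genes, with 20 V-ATPase subunits, 15 cathepsins, 14 other hydrolases and activators, 6 membrane proteins, 3 transcription factors and 1 antisense RNA that shares the ATP6V name. All 23 listed genes were found. 2 further symbols that meet the naming rule, ATP6V1G2 and its readthrough transcript, occurred only on clusters that carry several symbols and were not analysed here.

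ACHN is an established human renal carcinoma line, which the labels call clear cell. Both cultures were transfected and grown with the selection drug G418, and each gave 1 Affymetrix Human Gene 1.0 ST array. The sources used here do not say whether the cells were a clone or a pool. Since each group had 1 array, nothing could be tested: every difference below describes these 2 arrays and has no error that could be computed. Differences are on the log2 scale and are positive where Kindlin-2 shRNA cells were higher. A gene was called higher or lower when it differed by at least 1.5-fold, a size threshold and not a significance level. Such counts are read against the 3.77% of all genes at least 1.5-fold higher and the 3.81% at least 1.5-fold lower. In bulk RNA, fewer cells of a kind and less RNA per cell cannot be told apart.

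The array medians were 6.53 in Kindlin-2 shRNA cells and 6.51 in control cells. FERMT2, which encodes Kindlin-2, had 8.26 in the Kindlin-2 shRNA array and 9.37 in the control array, 2.16-fold lower. All 9 measured markers of kidney epithelial carcinoma cells had a mean above the table median of 6.52, but 7 of the 9 were lower in Kindlin-2 shRNA cells, with a median difference of -0.44. At least 1.5-fold lower were 2 of the 9 (22.2%, beside 3.81% of all genes). The adhesion protein CDH1 had 9.64 in Kindlin-2 shRNA cells and 11.60 in control cells, 3.90-fold lower, and the renal transcription factor PAX2 had 9.09 in Kindlin-2 shRNA cells and 9.75 in control cells, 1.58-fold lower. The part of these shifts in the lysosomal differences was not tested. Of 10 macrophage and leukocyte markers, which matter here because macrophages are rich in CD68 and cathepsins, 9 had a mean below that median. They ranged between 3.54 and 7.53 in Kindlin-2 shRNA cells and between 3.53 and 7.62 in control cells, and none differed by 1.5-fold.

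Lysosomes break down proteins, glycans and lipids in an acid lumen. The V-ATPase pumps protons into it, the membrane proteins shield and supply it, and most hydrolases reach it with a mannose 6-phosphate tag. In the kidney, proximal tubule cells degrade filtered protein in lysosomes, and intercalated cells place special V-ATPase isoforms at the cell surface to secrete acid. TFEB, TFE3 and MITF bind a palindromic promoter sequence, the CLEAR element, that many lysosomal genes share. When the kinase mTORC1 is active these factors are kept in the cytoplasm, so their activity is set largely after transcription.

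CLEAR-type letters in the promoters of the genes themselves are shown first, since they are what the MiT/TFE factors recognise. A promoter here runs over 250 bases before the start and 50 after it in RefSeq's GRCh38.p14 annotation, and such a stretch was given for 42 of the 59 genes. The motifs searched were the core CACGTG and its extension TCACGTGA, which contains the core. Both read the same on either strand. The windows below, at most 60 bases long and all before the start, come from the 6 genes that held TCACGTGA and from NEU1 and CTSD. Of the 6 genes that held CACGTG alone, NEU1 had the lowest difference between the arrays and CTSD the highest. Capitals mark every match that lies whole within a window, and a position of -1 is the last base before the start. LAMP1 held a further TCACGTGA that begins at -2 and runs past the start, so it is cut off and not in capitals.
MCOLN1, chr19:7522578-7522623, plus strand: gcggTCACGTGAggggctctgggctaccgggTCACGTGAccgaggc
LAMP1, chr13:113297179-113297238, plus strand: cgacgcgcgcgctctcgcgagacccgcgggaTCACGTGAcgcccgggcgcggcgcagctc
CTSA, chr20:45891278-45891334, plus strand: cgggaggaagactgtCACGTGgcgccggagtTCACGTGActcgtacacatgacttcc
GAA, chr17:80101518-80101577, plus strand: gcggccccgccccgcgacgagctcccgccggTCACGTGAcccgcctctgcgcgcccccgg
ATP6V0D1, chr16:67481189-67481248, minus strand: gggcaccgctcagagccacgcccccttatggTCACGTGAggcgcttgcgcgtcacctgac
ATP6V1G1, chr9:114587679-114587738, plus strand: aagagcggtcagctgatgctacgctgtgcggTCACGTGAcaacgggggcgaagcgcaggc
CTSD, chr11:1763947-1764006, minus strand: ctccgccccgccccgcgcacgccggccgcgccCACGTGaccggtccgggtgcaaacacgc
NEU1, chr6:31862920-31862979, minus strand: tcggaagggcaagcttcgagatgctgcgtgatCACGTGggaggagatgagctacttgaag

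TCACGTGA was found in 6 of the 42 genes (14.3%), against 1.65% of 15842 protein-coding genes with a promoter in the same table, and CACGTG in 12 (28.6%), against 10.9%. The 6 genes with TCACGTGA did not differ in one direction between the arrays. MCOLN1 differed by 0.30, LAMP1 by 0.27 and CTSA by 0.33, GAA by 0.0005, ATP6V0D1 by -0.10 and ATP6V1G1 by -0.27. Thus 4 were above 0 and 2 below (median 0.14), and of the 36 genes without TCACGTGA 17 were above 0 (median -0.01). With the median of the 50 nearest genes on the chromosome subtracted, MCOLN1 stood at 0.33, LAMP1 at 0.22 and CTSA at 0.19. After that step GAA stood at 0.0014, ATP6V0D1 at -0.02 and ATP6V1G1 at 0.03. Of the 12 genes with CACGTG, 7 were above 0 and 5 below (median 0.03), and of the 30 genes with neither motif 14 were above 0 (median -0.01). CTSB and ATP6V1B2, both at least 1.5-fold higher, had no promoter given and are in none of these counts. A match only says that the letters are present in this window.

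The median of the lysosomal genes stood close to that of all genes, while their upper quartile was higher. Of the 59, 30 were above 0 (50.8%), beside 46.7% of all genes, and the median difference was 0.00 over the 59 and -0.01 over all genes. Their quartiles were -0.12 and 0.29, beside -0.18 and 0.16 for all genes, and their mean was 0.08, beside -0.01. At least 1.5-fold higher in Kindlin-2 shRNA cells were 4 (6.78%), beside 3.77% of all genes: CD68, CTSB, CTSV and ATP6V1B2. NEU1 alone was at least 1.5-fold lower (1.69%), beside 3.81% of all genes. At 2-fold, CD68 was the 1 gene higher, beside 1.01% of all genes, and none was lower, beside 0.896%. The middle 90% of all genes lay between -0.52 and 0.51. Above that span were 5 of the 59 genes, the 4 just named and MITF, and below it was NEU1. Differences of at most 0.3 in either direction were seen in 39 genes. A mean of both arrays at or above the table median was reached by 49 of the 59, and the other 10 were dim, which shrinks differences in RMA values.

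**Figure D1:**
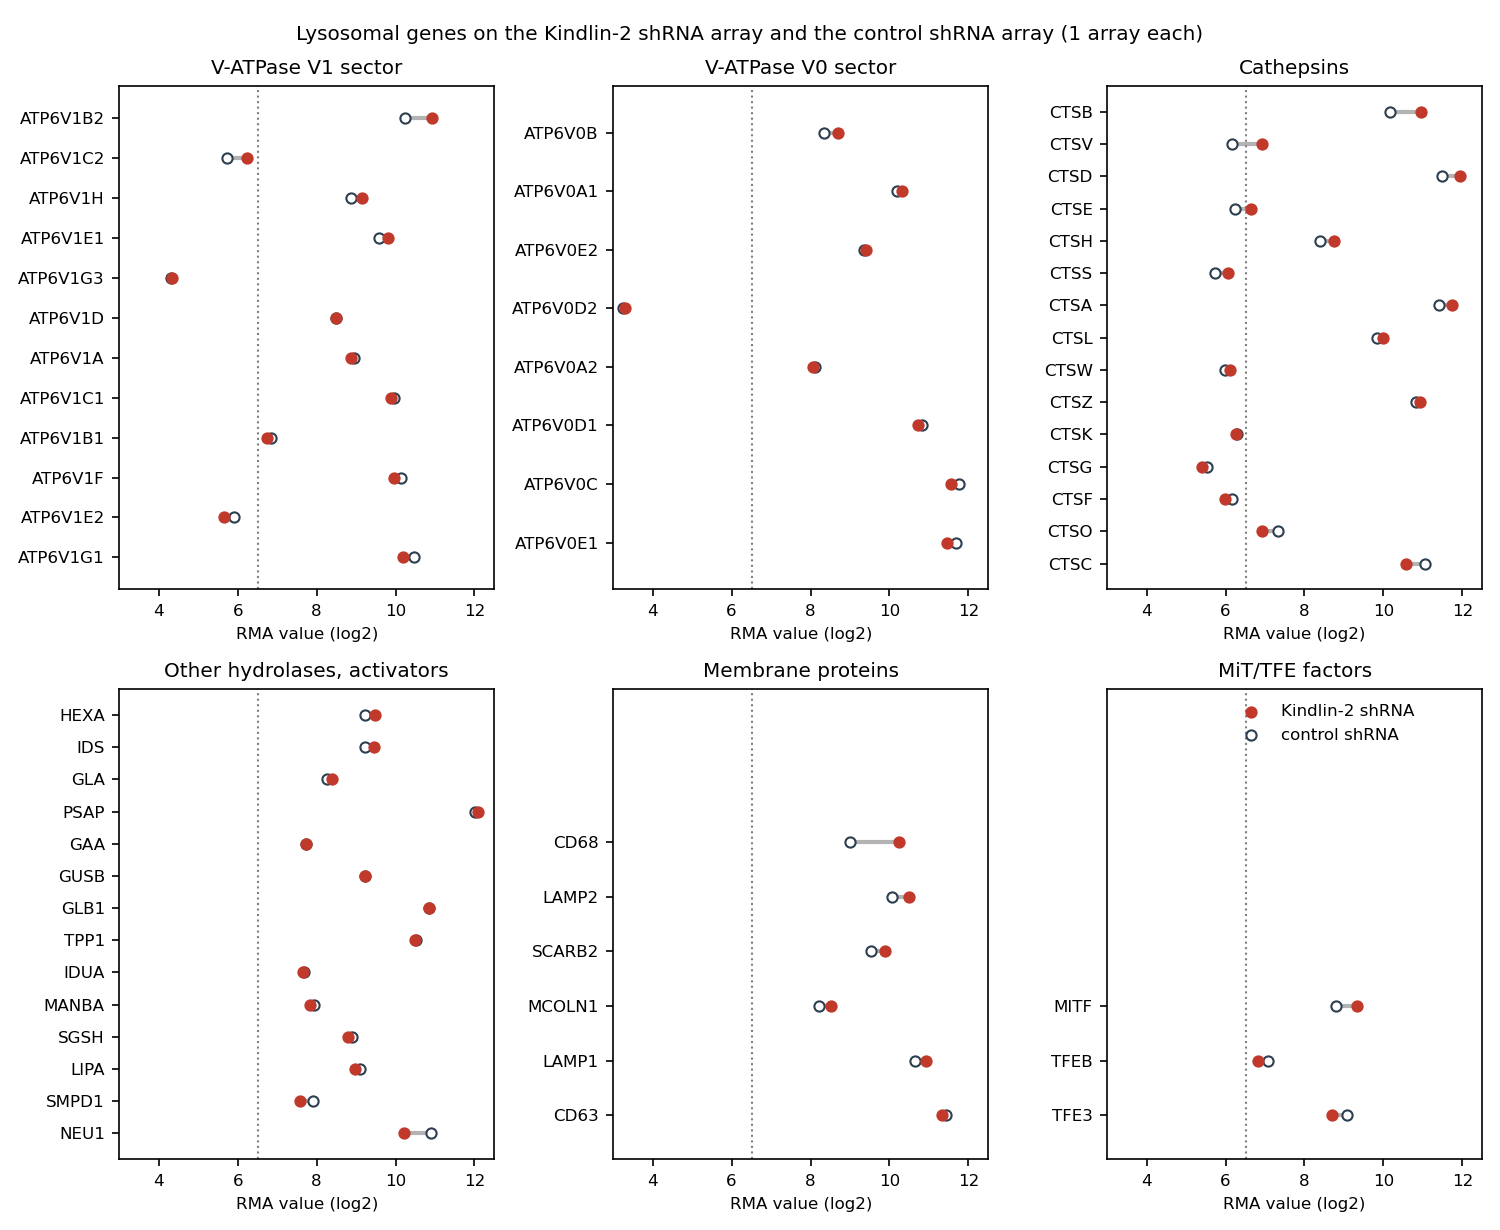
RMA log2 values of 58 lysosomal genes in 6 role groups (the antisense RNA is left out), with filled points for the Kindlin-2 shRNA array, open points for the control shRNA array and a dotted line at the table median of 6.52. Within each panel genes are ordered by their difference. The longest gap is that of CD68, and most pairs of points nearly coincide.

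The membrane proteins were the role group with the highest median difference, 0.34 over 6 genes, and 5 of the 6 were above 0. CD68, a heavily glycosylated LAMP family protein best known from macrophages, had 10.25 in Kindlin-2 shRNA cells and 9.01 in control cells. It was 2.37-fold higher, and 90 of all genes had a larger positive difference. The macrophage and leukocyte markers, which do not include CD68, had a median difference of -0.01 over 10 genes.

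The major lysosomal membrane glycoproteins differed less. LAMP2, which is also needed for chaperone-mediated autophagy, had 10.49 in Kindlin-2 shRNA cells and 10.07 in control cells, 1.34-fold higher. LAMP1 had 10.93 in Kindlin-2 shRNA cells and 10.66 in control cells, 1.21-fold higher. SCARB2 (LIMP-2), the receptor that carries glucocerebrosidase to lysosomes, had 9.90 in Kindlin-2 shRNA cells and 9.52 in control cells, 1.29-fold higher. The calcium channel MCOLN1 had 8.52 in Kindlin-2 shRNA cells and 8.22 in control cells, 1.23-fold higher. In the order of all genes by difference these 4 lay between percentiles 86.0 and 92.7, inside the middle 90%. The tetraspanin CD63, a marker of late endosomes and exosomes, was the exception, with 11.34 in Kindlin-2 shRNA cells and 11.44 in control cells.

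The 15 cathepsins, which digest proteins, differed in both directions, with 10 above 0 and a median of 0.15. CTSB, an abundant lysosomal cysteine protease, had 10.96 in Kindlin-2 shRNA cells and 10.17 in control cells, 1.74-fold higher. CTSV had 6.91 in Kindlin-2 shRNA cells and 6.17 in control cells, 1.68-fold higher, and its control value was under the table median. Its close relative CTSL had 9.98 in Kindlin-2 shRNA cells and 9.83 in control cells, 1.11-fold higher. Cross-hybridisation between this related pair was not tested.

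The main aspartic protease CTSD had 11.94 in Kindlin-2 shRNA cells and 11.48 in control cells, 1.37-fold higher. CTSH, an aminopeptidase, had 8.74 in Kindlin-2 shRNA cells and 8.40 in control cells, 1.27-fold higher. A pair of cysteine cathepsins lay at the other end. CTSC, the dipeptidyl peptidase that activates granule proteases in immune cells, had 10.57 in Kindlin-2 shRNA cells and 11.06 in control cells, 1.40-fold lower. CTSO had 6.91 in Kindlin-2 shRNA cells and 7.33 in control cells, 1.33-fold lower. The carboxypeptidase CTSZ differed by 0.09. The remaining CTSE, CTSS, CTSW, CTSK, CTSG and CTSF, most of them known from immune cells, stomach or bone, had means below the table median and differed by between -0.18 and 0.41.

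**Figure D2:**
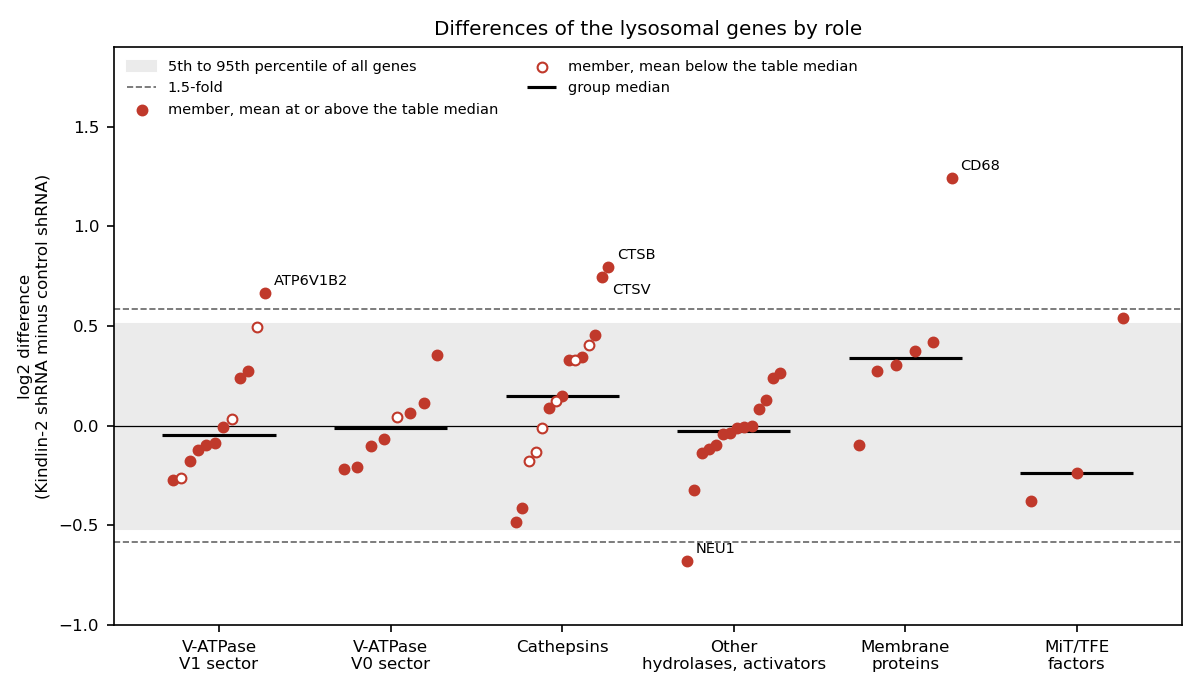
Log2 differences (Kindlin-2 shRNA minus control shRNA) of 58 lysosomal genes by role, 1 point per gene, filled where the mean of both arrays is at or above the table median and open where it is below. Bars are group medians, the grey band is the 5th to 95th percentile of all genes and dashed lines mark 1.5-fold. The 5 labelled genes are those past 1.5-fold, with 4 above and NEU1 below.

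The hydrolases and activators outside the cathepsins were mostly near their control values. Of 14 genes 5 were above 0 and 9 below, the median was -0.02, and their quartiles were -0.11 and 0.06. NEU1, the sialidase that removes terminal sialic acid from glycans, had 10.21 in Kindlin-2 shRNA cells and 10.89 in control cells, 1.60-fold lower. NEU1 has 3 clusters on the array, and the other 2 held one and the same pair of values, 9.99 in Kindlin-2 shRNA cells and 10.65 in control cells, a difference of -0.66. In the lysosome NEU1 works in a complex with CTSA, its protective protein, and with the beta-galactosidase GLB1, and these 3 genes differed from one another. CTSA had 11.75 in Kindlin-2 shRNA cells and 11.42 in control cells, 1.26-fold higher. GLB1 had 10.84 in Kindlin-2 shRNA cells and 10.85 in control cells.

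Enzymes of lipid breakdown gave small differences. The sphingomyelinase SMPD1 had 7.59 in Kindlin-2 shRNA cells and 7.91 in control cells, a difference of -0.32. PSAP, the precursor of the saposins that present sphingolipids to their hydrolases, differed by 0.08. HEXA, the ganglioside hexosaminidase subunit, differed by 0.26, the alpha-galactosidase GLA by 0.13 and the cholesteryl ester hydrolase LIPA by -0.14.

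The remaining hydrolases outside the cathepsins, which take apart glycosaminoglycans, glycogen, glycoproteins and peptides, differed by between -0.12 and 0.24. Among the glycosaminoglycan enzymes, IDS differed by 0.24 (0.17 in its second cluster), GUSB by -0.01, IDUA by -0.04 and the sulfamidase SGSH by -0.12. GUSB has many pseudogenes, and clusters that name it with them were left out. The glycogen-degrading GAA had 7.73 on both arrays. The mannosidase MANBA differed by -0.10, and the tripeptidyl peptidase TPP1 by -0.04.

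The V-ATPase subunits did not differ in one direction. Of 20 subunits 9 were above 0 and 11 below, and the median was -0.04. At least 1.5-fold higher was 1 of the 20, beside 3.77% of all genes, and none was lower, beside 3.81%. The V1 sector, which hydrolyses ATP outside the membrane, had a median of -0.05 over 12 genes, and the V0 sector, the proton channel in the membrane, -0.01 over 8. ATP6V1B2, the widespread form of the B subunit, had 10.91 in Kindlin-2 shRNA cells and 10.25 in control cells, 1.59-fold higher. The partner with which B forms the ATP-binding ring, ATP6V1A, had 8.87 in Kindlin-2 shRNA cells and 8.96 in control cells. The pair thus did not differ together.

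In the rest of V1, the regulatory subunit ATP6V1H differed by 0.27 and the stalk subunit ATP6V1E1 by 0.24. The stalk subunit ATP6V1G1 differed by -0.27, the C subunit ATP6V1C1 by -0.09, and the rotor subunits ATP6V1D and ATP6V1F by -0.01 and -0.18. In V0, ATP6V0B, one of the proteolipids of the rotating ring, had 8.70 in Kindlin-2 shRNA cells and 8.34 in control cells, 1.28-fold higher. The main ring proteolipid ATP6V0C had 11.56 in Kindlin-2 shRNA cells and 11.76 in control cells, 1.15-fold lower, opposite in sign to ATP6V0B. The a-subunit isoforms ATP6V0A1 and ATP6V0A2, which steer the pump to different membranes, differed by 0.11 and -0.07. The V0 subunits ATP6V0D1 and ATP6V0E1 differed by -0.10 and -0.22, and ATP6V0E2 by 0.07. Its antisense neighbour ATP6V0E2-AS1, which is no pump subunit, differed by -0.01.

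Isoforms with a restricted distribution were mostly dim. The kidney forms ATP6V1G3 (4.34 in Kindlin-2 shRNA cells and 4.31 in control cells) and ATP6V0D2 (3.29 in Kindlin-2 shRNA cells and 3.24 in control cells) were far below the table median. The intercalated cell isoform ATP6V1B1 had 6.73 in Kindlin-2 shRNA cells and 6.85 in control cells, just above it, and differed in sign from ATP6V1B2. Of 6 intercalated cell markers, 5 had a mean below the table median. The epithelial C isoform ATP6V1C2 had 6.23 in Kindlin-2 shRNA cells and 5.74 in control cells, 1.41-fold higher, while the testis isoform ATP6V1E2 differed by -0.26. ATP6V1C2 and ATP6V1E2, both dim, thus differed with the opposite sign to their widespread counterparts ATP6V1C1 and ATP6V1E1. For the C pair this rests on a value near 0. ATP6V1C1 differed by -0.09, and by -0.0034 with the median of the 50 nearest genes subtracted.

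The 3 MiT/TFE factors described here, which act on CLEAR elements, also differed in sign. MITF, best known from melanocytes and osteoclasts, had 9.34 in Kindlin-2 shRNA cells and 8.80 in control cells, 1.46-fold higher, just short of the 1.5-fold threshold. TFE3 had 8.69 in Kindlin-2 shRNA cells and 9.07 in control cells, 1.30-fold lower. TFEB had 6.83 in Kindlin-2 shRNA cells and 7.07 in control cells, 1.18-fold lower. Each is the level of the transcript, which does not show whether the protein is in the nucleus. None of the 4 measured melanocyte markers had a mean above the table median or differed by 1.5-fold.

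Several chromosomes were shifted between these arrays, in the sense that the median difference of their genes lay away from 0. Of the 59 genes, 11 lie on the 4 chromosomes with the largest shifts. A shift was not even along a chromosome. On chromosome 9 the median of the 50 nearest genes was -0.12 at CTSL and -0.30 at ATP6V1G1. The median difference was -0.19 on chromosome 9, -0.13 on chromosome 7, -0.14 on chromosome 12 and 0.15 on chromosome 20. ATP6V1G1 lies on chromosome 9, and with the median of the 50 nearest genes (-0.30) subtracted it stood at 0.03. CTSV lies on the same chromosome, against its shift, and stood at 1.02 after the same step. On chromosome 20, CTSA stood at 0.19 and CTSZ at -0.04. The other 4 genes past 1.5-fold stayed past it, with CD68 at 1.253, CTSB at 0.72, ATP6V1B2 at 0.63 and NEU1 at -0.60. ATP6V1B2, CTSB and also ATP6V1H lie on chromosome 8, whose median was -0.03.

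**Figure D3:**
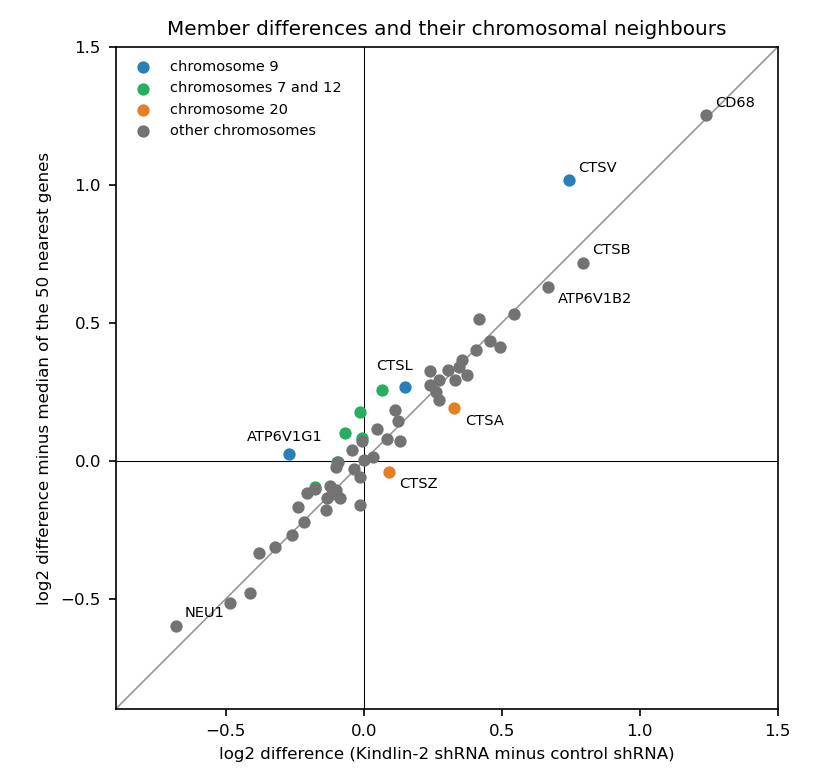
Log2 difference of the 59 lysosomal genes (horizontal) against the same difference after the median of the 50 nearest genes on the chromosome was subtracted (vertical), 1 point per gene, coloured by chromosome, with the line of equality. ATP6V1G1 lies farthest above the line, at -0.27 before and 0.03 after, followed by CTSV, at 0.75 before and 1.02 after.

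Further genes of the lysosome were described with lists whose genes were not picked for how they differed. The lists themselves were chosen with earlier results of these data known. Of 37 other hydrolases and activators 29 had a cluster of their own, and 19 of these were above 0 (65.5%, beside 46.7% of all genes) with a median of 0.05. At least 1.5-fold higher were 2 (6.90%, beside 3.77% of all genes), and 1 was lower (3.45%, beside 3.81%). GGH, which trims folate polyglutamates, had 8.31 in Kindlin-2 shRNA cells and 6.91 in control cells, 2.63-fold higher. LGMN, the asparaginyl endopeptidase that processes several cathepsins to their mature forms, had 9.36 in Kindlin-2 shRNA cells and 8.08 in control cells, 2.42-fold higher. PLD3, a lysosomal exonuclease, had 8.83 in Kindlin-2 shRNA cells and 9.60 in control cells, 1.71-fold lower. GGH and LGMN thus stood further from their control values than any of the 59 genes, CD68 included.

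Of 38 other membrane proteins and transporters 37 were measured, 20 were above 0 and the median was 0.02. At least 1.5-fold higher were 2 (5.41%, beside 3.77% of all genes) and none was lower, beside 3.81%. The tetraspanin CD82 had 8.42 in Kindlin-2 shRNA cells and 7.35 in control cells, 2.10-fold higher. TPCN1, a cation channel of endosomes and lysosomes, had 10.16 in Kindlin-2 shRNA cells and 9.20 in control cells, 1.94-fold higher, although chromosome 12, where it lies, was shifted down. The 12 measured V-ATPase subunit, assembly and accessory genes without the ATP6V name had a median of 0.07 and none passed 1.5-fold.

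Of 12 cystatins and serpin inhibitors of cathepsins 9 were above 0, beside 46.7% of all genes, 2 were below and 1 at exactly 0. Their median was 0.22, above the upper quartile of all genes (0.16), and none passed 1.5-fold. A mean at or above the table median was reached by 5 of the 12, and the rest were dim. Part of this list lies on chromosome 20, and with chromosome medians subtracted its median was 0.12, or 0.17 with the median of the 50 nearest genes subtracted. Of 27 measured genes of mannose 6-phosphate tagging and sorting 15 were above 0, with a median of 0.03. At least 1.5-fold higher was 1 (3.70%, beside 3.77% of all genes) and 1 was lower (3.70%, beside 3.81%). GNPTAB, the enzyme subunit that begins the tag, had 10.34 in Kindlin-2 shRNA cells and 9.64 in control cells, 1.63-fold higher. VPS41, of the HOPS tethering complex, had 9.73 in Kindlin-2 shRNA cells and 10.32 in control cells, 1.51-fold lower, and it lies on chromosome 7, which was shifted down.

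A list on the control of TFEB, mostly through mTORC1, had a median of 0.03 over 27 measured genes. At least 1.5-fold higher were 2 (7.41%, beside 3.77% of all genes) and none was lower, beside 3.81%. RRAGD, a Rag GTPase that recruits MiT/TFE factors to the lysosome and is itself one of their targets, had 8.55 in Kindlin-2 shRNA cells and 7.91 in control cells, 1.57-fold higher. YWHAB, a 14-3-3 protein of the group that holds phosphorylated TFEB in the cytoplasm, had 11.65 in Kindlin-2 shRNA cells and 11.05 in control cells, 1.51-fold higher, and lies on the upward-shifted chromosome 20. Autophagy genes had a median of -0.08, with 16 of 38 above 0 (42.1%). At least 1.5-fold lower were 3 (7.89%, beside 3.81% of all genes) and 1 was higher (2.63%, beside 3.77%). GABARAPL1, an ATG8 family protein of the autophagosome membrane, had 9.75 in Kindlin-2 shRNA cells and 10.62 in control cells, 1.82-fold lower. STX17, the SNARE of autophagosome fusion with lysosomes, had 8.08 in Kindlin-2 shRNA cells and 8.76 in control cells, 1.61-fold lower. WIPI2, which recruits the ATG16L1 complex, had 8.99 in Kindlin-2 shRNA cells and 9.60 in control cells, 1.53-fold lower, and the protease ATG4A had 6.65 in Kindlin-2 shRNA cells and 6.02 in control cells, 1.55-fold higher. All 3 lower genes lie on chromosomes 7, 9 or 12. With their chromosome's median subtracted GABARAPL1 stood at -0.73, STX17 at -0.49 and WIPI2 at -0.48, so that GABARAPL1 alone of the 3 stayed past 1.5-fold.

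With the median of the 50 nearest genes subtracted, 5 of the 13 genes named from these further lists were no longer past 1.5-fold. They were RRAGD at 0.50, YWHAB at 0.42, VPS41 at -0.47, STX17 at -0.47 and WIPI2 at -0.41. Neither of the 2 genes named from the list on TFEB control stayed past the threshold in this step. GGH at 1.42, LGMN at 1.22, CD82 at 1.14, TPCN1 at 1.12, GNPTAB at 0.82, ATG4A at 0.63, PLD3 at -0.71 and GABARAPL1 at -0.87 stayed past it. With the chromosome median subtracted instead, RRAGD at 0.68 stayed past 1.5-fold and YWHAB at 0.45 did not.

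**Figure D4:**
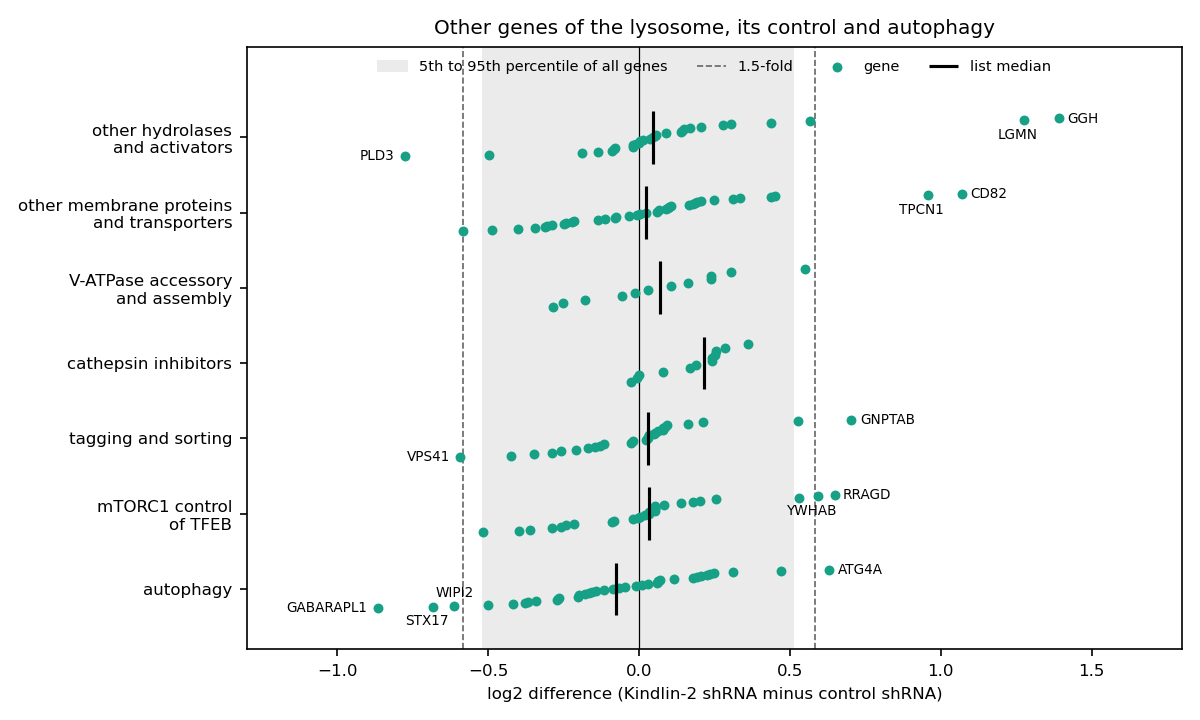
Log2 differences (Kindlin-2 shRNA minus control shRNA) of the measured genes of 7 further lists, 1 point per gene, with list medians as bars, the 5th to 95th percentile of all genes as a grey band and dashed lines at 1.5-fold. Names mark genes past 1.5-fold. All 7 medians lie inside the band, between -0.08 and 0.22.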

How the data were processed

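The deposited table gives a log2 value for each of 33297 transcript clusters on 2 arrays, 1 per group. Per the submitters' processing notes, the authors used RMA and Affymetrix Expression Console 1.4.1. The log2 scale was judged from the range of 2.13 to 14.04. The table has no detection calls, and the sources used here name no build for the array's annotation. The number of arrays limits the precision of every value.

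Symbols came from GEO's platform annotation, checked through Entrez IDs against RefSeq (GRCh38.p14): 19460 clusters had a single symbol, 1754 several and 12083 none. Each gene was represented by its brightest single-symbol cluster, and no filter on dim genes was set, so that a gene could not enter through its higher array. Promoters came from RefSeq. Python 3.11.15, pandas 2.3.3 and statsmodels 0.14.6 (loess) were used, and the counting was tested on simulated data. No test was run, because each group had 1 array. The text may name each of the 59 genes, FERMT2, and from each further list up to 4 genes per direction past 1.5-fold. Genes, lists and alternatives were chosen with earlier results of these data known.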

Additional observations from a re-analysis of the deposited data

How the results depend on the processing

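No paired analysis was possible because each group held 1 array, and for the same reason no array could be left out. Of 156 values recomputed under 13 alternative settings, 147 stayed within the limits set (a median within 0.1, a count within 1.5 times, a gene past 1.5-fold), 9 moved and none was labelled reversed. Medians near 0 could change sign without that label. With the median of the 50 nearest genes subtracted, the V1 sector median was 0.02, against -0.05. CD68, CTSB, CTSV, ATP6V1B2 and NEU1 were the genes past 1.5-fold under every filter, normalisation, cluster and chromosome setting run. Part of this was fixed in advance, and the 147 include such values. Leaving out dim genes does not alter the difference of a gene that is kept. The check of symbols changed no symbol of a lysosomal gene, and averaging over clusters could alter only IDS and NEU1. The count of genes at least 2-fold higher was 2 with the median of the 50 nearest genes subtracted, where CTSV joined CD68. That setting also gave the V0 sector a median of 0.11. At a threshold of 0.32 on the log2 scale 14 genes were higher and 4 lower, and at 3-fold 0 were higher and 0 lower, beside 11.2%, 12.6%, 0.223% and 0.244% of all genes. With genes of a mean below the table median left out, the cathepsin median was 0.33, over 9 genes in place of 15. CTSV passed this filter with its control value below the table median, so through its higher array, and the median over the other 8 was 0.24 (an alternative chosen after seeing the data). With the mean in place of the median, the V1 sector stood at 0.057, against a median of -0.05, and the transcription factors at -0.0251, against -0.24. Dim genes have compressed differences, and detection could not be judged.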
